A study of Mus musculus with 12 samples.

Results

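The 8 genes described here encode leukocyte integrin subunits and ligands of selectins, which together let white blood cells roll, arrest and spread on vessel walls and matrix. They are the integrin alpha subunit genes Itgam, Itgal, Itgax and Itga4, the integrin beta subunit genes Itgb2 and Itgb7, and the sialomucin genes Selplg and Spn. They were taken by gene symbol, and all 8 were found among the 23420 gene rows of the count table. The data are bulk RNA-seq of macrophages that were sorted from marrow nucleated cells of mice on a C57BL/6 background. There were 6 libraries from tibias treated with mesenchymal stromal cells (MSCs), whose cells the labels call MSC-educated macrophages, and 6 from untreated femurs of the same animals. Each bone of each of the 2 mice, numbered 19 and 7 in the sample titles, gave 3 libraries. Treatment and bone type cannot be told apart, because all treated bones were tibias and all untreated ones femurs. The labels used here do not state the age of the mice, whether they carried leukaemia, how and when MSCs were given, or the sort markers.

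An integrin is a pair of 1 alpha and 1 beta chain. Itgb2 encodes CD18, the beta chain shared by LFA-1 (with Itgal, CD11a), Mac-1 (with Itgam, CD11b) and CD11c/CD18 (with Itgax). These receptors bind ICAMs, complement fragment iC3b and fibrinogen, and Mac-1 is abundant on monocytes, macrophages and granulocytes. Itga4 encodes the alpha chain of VLA-4 and of alpha4beta7, which bind VCAM-1, fibronectin and MAdCAM-1 and hold blood-forming cells in the marrow. Selplg encodes PSGL-1, the main ligand of P-selectin on leukocytes, and Spn encodes CD43, a long, heavily glycosylated mucin of the leukocyte surface.

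Total counts ran from 9773455 to 14869150 per library, and 11806 genes were tested. The labels do not say whether the 3 libraries of a bone came from separate sorts, so p-values measure the spread between libraries, which may be technical. Macrophage and monocyte genes were well detected: Csf1r averaged 954.9 CPM (counts per 1000000 of the scaled library total) in tibia and 946.1 CPM in femur libraries, and Emr1, which encodes F4/80, averaged 291.4 CPM in tibia and 306.2 CPM in femur libraries. Neutrophil markers were present as well, with S100a9 at a mean of 6617 CPM in the tibia and 6017 CPM in the femur. In bulk RNA, fewer cells of a type and less RNA per cell cannot be told apart.

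All 8 genes were read deeply enough for the comparison. The lowest count of any of them was 544, for Itgax in tibia library 1 of mouse 7, or 43.0 CPM with a 95% Poisson interval of 38.1 to 48.5 CPM, computed on fragments and covering counting error only. Levels of different genes were compared per kilobase (kb) of exon, from the protein-coding transcripts of GENCODE M21. Itgb2 stood highest at 419.2 ± 10.4 CPM per kb in the tibia and 445.3 ± 29.8 CPM per kb in the femur (mean ± SD, n = 6 libraries each). Itgam followed at 322.2 ± 9.4 CPM per kb in the tibia and 317.1 ± 13.4 CPM per kb in the femur. Selplg (253.9 in the tibia and 271.8 in the femur) and Itgb7 (205.0 in the tibia and 224.6 in the femur) came next in CPM per kb. The place of Selplg depends on the transcripts counted: over the exons of all its annotated transcripts it had 110.3 CPM per kb in the tibia and 118.0 CPM per kb in the femur, below Itgb7.

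Itgal, Spn and Itga4 had means of 86.8, 74.2 and 70.3 CPM per kb in the tibia and 94.96, 79.1 and 79.6 CPM per kb in the femur. These 3 did not stand apart from each other in every library: Itga4 ranged from 57.1 to 85.3 CPM per kb in the tibia, which spans all 6 tibia values of Spn. Itgax was the lowest of the 8, at 11.8 ± 2.2 CPM per kb in the tibia and 14.8 ± 2.6 CPM per kb in the femur. The 4 alpha chain genes that pair with Itgb2, which are Itgal, Itgam, Itgax and the weakly expressed Itgad, summed to 423.0 CPM per kb in the tibia and 429.7 CPM per kb in the femur. Their sum was 1.01 ± 0.02 times the Itgb2 level in the tibia and 0.966 ± 0.016 times in the femur. Itgam gave 76.2% ± 1.1 of that sum in the tibia and 73.9% ± 1.3 in the femur.

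**Figure D1:**
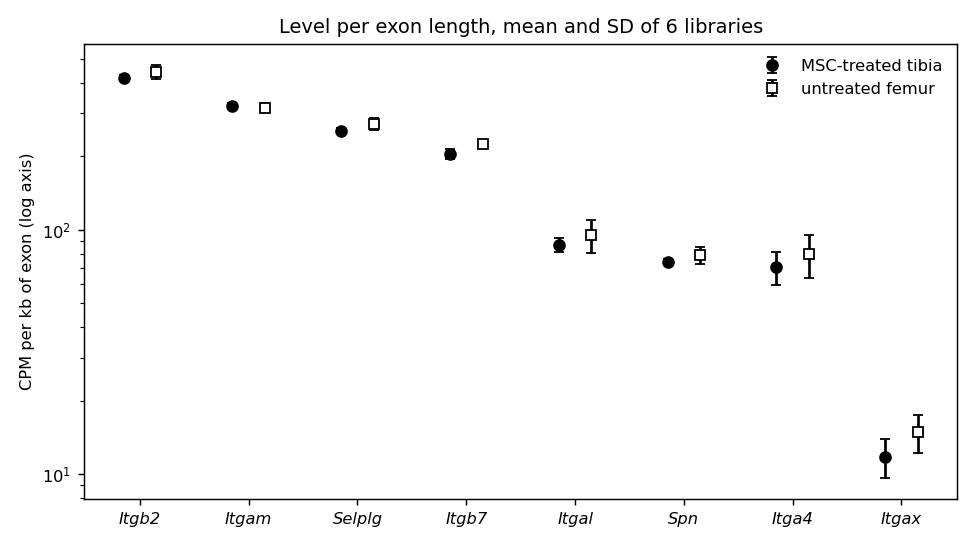
Level of the 8 adhesion genes in CPM per kb of exon on a log axis, as the mean and SD of 6 libraries in the MSC-treated tibia (filled circles) and the untreated femur (open squares). Itgb2 and Itgam lead and Itgax is lowest in both bones.

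The first comparison asked which of these genes differed between macrophages of the treated tibia and of the untreated femur, with the mouse as a term. Itgax, Itga4, Itgb7 and Itgal were lower in the tibia, and no member was called higher. Itgax fell by 20.5%, Itga4 decreased by 11.01%, Itgb7 decreased by 8.77% and Itgal decreased by 7.89%. Itgb2, Selplg, Spn and Itgam did not pass. The call was a Benjamini-Hochberg adjusted p under 0.05 in edgeR's quasi-likelihood test over all 11806 genes, where 3.69% of genes were called lower and 3.51% higher. The log2 fold change was negative for 7 of the 8 members against 50.8% of all tested genes, with a median of -0.11 for the members and -0.0021 for all genes. On counts summed per animal, where the mouse is the unit, Itgax was the only member called lower (adjusted p = 0.0455), beside 0.144% of all genes. Without a mouse term in the model 0 members were called (adjusted p 0.14 to 0.599 for these 4).

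**Figure D2:**
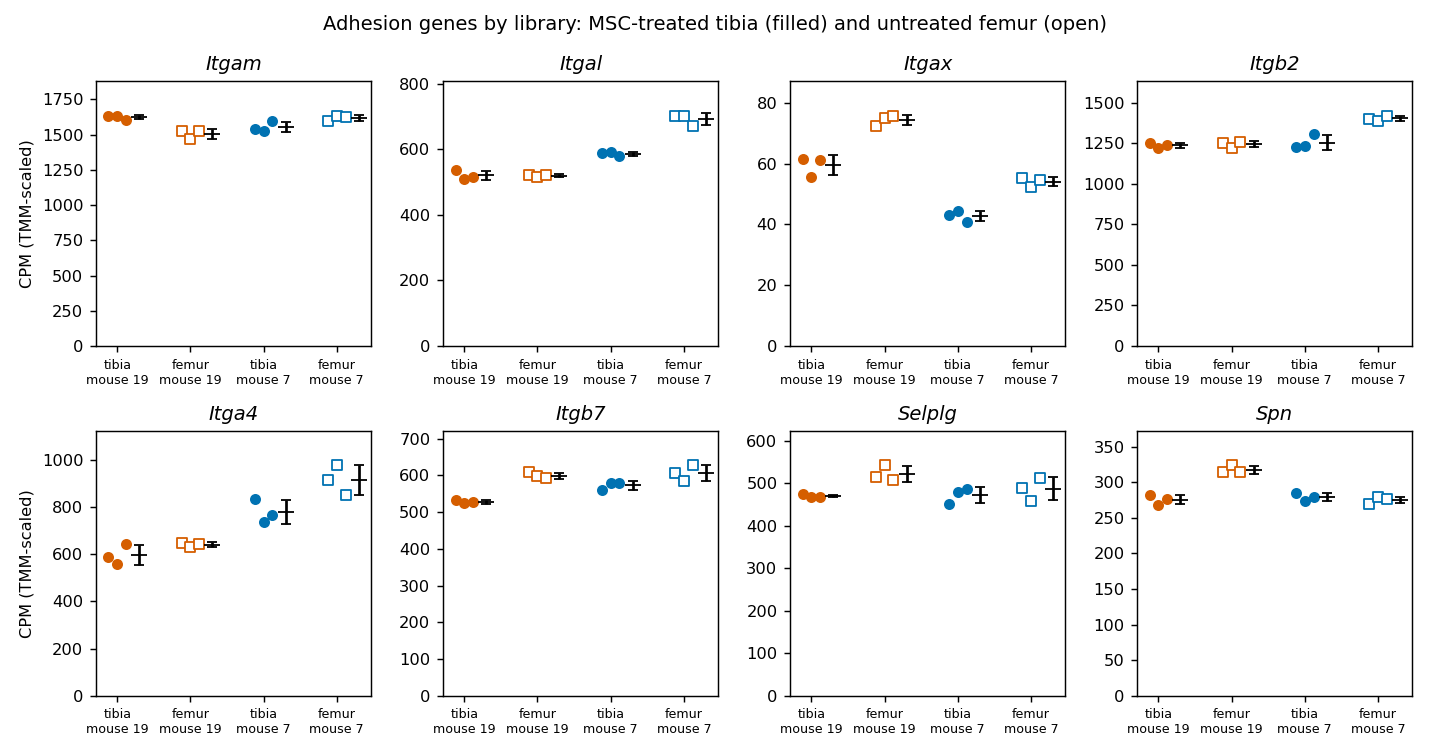
CPM of each gene in every library, with MSC-treated tibia libraries as filled circles, untreated femur libraries as open squares, mouse 19 in orange and mouse 7 in blue, and the mean and SD of each set of 3 libraries in black. Itgax and Itgb7 are lower in every tibia library than in every femur library of the same mouse.

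Itgax, the CD11c gene that is also widely used as a marker of dendritic cells, lay in every tibia library below every femur library of its own mouse. In mouse 19 it had 61.4, 55.6 and 61.3 CPM in the tibia, against 72.5, 74.9 and 75.8 CPM in the femur. Mouse 7 had 43.0, 44.4 and 40.9 CPM in the tibia, against 55.3, 52.3 and 54.5 CPM in the femur. The tibia and femur values do not overlap within either animal. Between animals, every tibia library of mouse 19 was above every femur library of mouse 7. Its log2 fold change was -0.33 ± 0.04 (approximate SE) over both mice (edgeR adjusted p = 2.9e-05), -0.32 ± 0.06 in mouse 19 (adjusted p = 7.6e-04) and -0.34 ± 0.06 in mouse 7 (adjusted p = 6.2e-04). The difference between the mice, mouse 19 minus mouse 7, was 0.01 ± 0.09 (95% interval -0.157 to 0.185), which did not pass (adjusted p = 0.968). Its size was moderate among all genes, since 8.38% of tested genes had a log2 fold change of at least that size in either direction. The call on sums was near the threshold. Leaving out 1 library before summing, a check added after seeing the data, ended it for 9 of the 12 libraries (adjusted p 0.0621 to 0.338); the 3 whose removal kept it were tibia library 2 of mouse 19 and both femur library 1 and femur library 3 of mouse 7.

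Itgax and Itgam are neighbours on chromosome 7 and code for alpha chains of the same beta chain, yet Itgam was not called over both mice. In the GRCm38.p6 annotation Itgam runs from 128062640 to 128118491 and Itgax from 128129526 to 128150657 on the plus strand, with 11034 bases between them. On the other side of Itgax, 23275 bases away, lies Itgad, another alpha chain gene of the same beta chain. Itgad was at -0.36 ± 0.11 over both mice and did not pass (edgeR adjusted p = 0.0554). In 6 of 6 tibia libraries Itgad was below the femur mean of the same mouse. Its bones did not overlap in mouse 19. They did in mouse 7, at 1.16 to 1.65 CPM per kb in the tibia and 1.57 to 2.40 CPM per kb in the femur. The promoter windows of Itgam and Itgax are shown because only Itgax of this pair was called over both mice. Those of the partners Itga4 (plus strand of chromosome 2) and Itgb7 (minus strand of chromosome 15) are shown because both were lower. Each window is written 5′ to 3′ on the gene's strand, from 250 bases before to 50 bases after the start that the table uses. Capitals mark AGGAAG or its reverse complement CTTCCT. This string is longer and narrower than the GGAA core bound by Ets factors such as PU.1 of myeloid cells, which it contains. GGAA or TTCC with other flanking bases was left unmarked.
Itgam, chr7:128062390-128062689: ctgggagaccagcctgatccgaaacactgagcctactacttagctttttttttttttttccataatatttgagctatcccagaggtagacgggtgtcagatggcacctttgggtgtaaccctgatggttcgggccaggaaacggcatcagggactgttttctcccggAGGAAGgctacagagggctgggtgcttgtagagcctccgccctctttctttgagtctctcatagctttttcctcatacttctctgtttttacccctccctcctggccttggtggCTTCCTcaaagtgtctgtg
Itgax, chr7:128129300-128129599: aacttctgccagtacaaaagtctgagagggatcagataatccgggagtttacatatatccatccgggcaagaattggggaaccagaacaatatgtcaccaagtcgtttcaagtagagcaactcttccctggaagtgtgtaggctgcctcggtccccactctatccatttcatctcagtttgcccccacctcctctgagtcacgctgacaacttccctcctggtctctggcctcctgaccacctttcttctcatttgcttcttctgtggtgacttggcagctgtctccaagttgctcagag
Itga4, chr2:79255176-79255475: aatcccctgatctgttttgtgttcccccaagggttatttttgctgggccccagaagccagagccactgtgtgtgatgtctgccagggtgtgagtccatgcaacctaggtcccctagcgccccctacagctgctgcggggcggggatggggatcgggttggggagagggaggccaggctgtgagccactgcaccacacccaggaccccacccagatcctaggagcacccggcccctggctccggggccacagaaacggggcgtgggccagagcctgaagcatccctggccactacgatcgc
Itgb7, chr15:102231886-102232185: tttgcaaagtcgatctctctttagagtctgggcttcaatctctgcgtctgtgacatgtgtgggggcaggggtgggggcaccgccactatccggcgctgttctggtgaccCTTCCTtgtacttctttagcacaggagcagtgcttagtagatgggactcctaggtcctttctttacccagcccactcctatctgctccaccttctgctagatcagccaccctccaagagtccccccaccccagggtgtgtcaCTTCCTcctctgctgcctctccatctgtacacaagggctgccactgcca
The Itgam and Itgb7 windows held 2 matches each to the marked string and the Itgax and Itga4 windows 0. The shorter core does occur unmarked in the Itgax and Itga4 windows, so 0 matches does not mean that they lack it. At least 1 match occurred in 35.4% of all 32851 promoter windows of the table, searched on both strands. The presence of these letters describes the window and says nothing of binding. A promoter entry was found for 5 of the 8 members, the fifth being Spn, whose window is not printed and also held 2 matches. Of the other members in GRCm38.p6, Itgal (127296139 to 127335137, plus strand) and Spn (127123637 to 127145552, minus strand) also lie on chromosome 7. Itgb2 lies on chromosome 10 (77530329 to 77565708, plus strand) and Selplg on chromosome 5 (113817798 to 113832528, minus strand). The whole genes of Itga4 and Itgb7 run from 79255426 to 79333114 on chromosome 2 and from 102215994 to 102233405 on chromosome 15.

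Itgam, the CD11b gene, was higher in the tibia of mouse 19 and was not called in mouse 7. In mouse 19 it had 1630, 1633 and 1605 CPM in the tibia, against 1527, 1466 and 1527 CPM in the femur. In mouse 7 it had 1538, 1524 and 1593 CPM in the tibia, against 1594, 1635 and 1624 CPM in the femur. All tibia libraries were above the femur libraries in mouse 19 and below them in mouse 7, where 1593 and 1594 CPM nearly met. On the log2 scale the change was 0.02 ± 0.03 over both mice (95% interval -0.035 to 0.082; edgeR adjusted p = 0.718), 0.11 ± 0.03 in mouse 19 (adjusted p = 0.0454) and -0.06 ± 0.03 in mouse 7 (adjusted p = 0.267). The difference between the mice passed at 0.17 ± 0.05 (adjusted p = 0.0253). The call in mouse 19 was lost with median-of-ratios size factors (0.0538), with a filter of 5 CPM (0.0579) and on halved counts (0.0622). Removing any of 9 libraries ended it too (adjusted p 0.05 to 0.217), namely all 6 of mouse 19 and, in mouse 7, tibia library 3 and femur libraries 1 and 3. The test of the difference failed on removal of any of 7 libraries (adjusted p 0.0505 to 0.0968), which were numbers 1 and 2 of both bones of mouse 19 and, in mouse 7, tibia library 2 and femur libraries 2 and 3.

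Itgal, the alpha chain of LFA-1, was lower in the tibia of mouse 7 alone. Mouse 19 had 535.5, 509.9 and 516.4 CPM in the tibia, against 522.7, 516.0 and 521.4 CPM in the femur, and these ranges overlap. Mouse 7 had 589.7, 591.2 and 580.0 CPM in the tibia, against 702.8, 702.6 and 670.0 CPM in the femur, with no overlap. As a log2 fold change this was 0.0018 ± 0.035 in mouse 19 (edgeR adjusted p = 0.987), -0.24 ± 0.03 in mouse 7 (adjusted p = 2.3e-05) and -0.12 ± 0.04 over both (adjusted p = 0.046). The change differed between the mice by 0.24 ± 0.05 (adjusted p = 0.0022). The call over both mice was lost on sums per animal (0.565), without a mouse term (0.572), and on removal of any of 7 libraries (adjusted p 0.0613 to 0.136), all 6 of mouse 7 and the second tibia library of mouse 19.

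Itgb2, the shared beta chain gene, was lower in the tibia of mouse 7 and was not called over both mice. In mouse 19 it had 1251, 1221 and 1237 CPM in the tibia, against 1249, 1222 and 1258 CPM in the femur, so the ranges overlap. Mouse 7 had 1225, 1231 and 1304 CPM in the tibia, against 1397, 1389 and 1420 CPM in the femur, with no overlap. The log2 fold change was -0.01 ± 0.03 in mouse 19 (edgeR adjusted p = 0.944), -0.16 ± 0.03 in mouse 7 (adjusted p = 0.0017) and -0.08 ± 0.03 over both (95% interval -0.14 to -0.026; adjusted p = 0.0891). The difference of 0.15 ± 0.05 between the mice missed the threshold (adjusted p = 0.0546), and passed it with no low count filter (0.0371) or without tibia library 3 of mouse 7 (0.0271).

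Itga4 and Itgb7, which code for the chains of alpha4beta7, were both lower over the mice. In mouse 19 Itga4 had 587.9, 557.6 and 643.6 CPM in the tibia, against 648.3, 628.3 and 644.7 CPM in the femur. In mouse 7 it had 833.5, 735.7 and 763.8 CPM in the tibia, against 913.2, 976.1 and 851.4 CPM in the femur. The bones overlapped in mouse 19 through tibia library 3 and did not overlap in mouse 7. The log2 fold change of Itga4 was -0.17 ± 0.04 over both mice (edgeR adjusted p = 0.0105), -0.10 ± 0.05 in mouse 19 (adjusted p = 0.277, and 0.0487 without tibia library 3 of that mouse) and -0.23 ± 0.05 in mouse 7 (adjusted p = 0.0022). Its difference between the mice was 0.13 ± 0.07 (adjusted p = 0.385). On sums per animal Itga4 was not called (adjusted p = 0.292). Itga4 overlaps Cerkl on the other strand, and Cerkl held 7 to 32 counts per library.

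Itgb7 had 532.8, 523.5 and 526.7 CPM in the tibia of mouse 19, against 607.7, 598.9 and 591.3 CPM in its femur. Mouse 7 had 558.6, 579.7 and 579.6 CPM in the tibia, against 605.7, 585.2 and 627.1 CPM in the femur. No tibia library reached the lowest femur library of its own mouse. Its log2 fold change was -0.13 ± 0.03 over both mice (edgeR adjusted p = 0.0049), -0.18 ± 0.04 in mouse 19 (adjusted p = 0.001) and -0.08 ± 0.03 in mouse 7 (adjusted p = 0.150). Its difference between the mice was -0.10 ± 0.05 (adjusted p = 0.322), and it was not called on sums per animal (adjusted p = 0.429). Itgb1, the other beta chain that pairs with Itga4, had 352.6 ± 20.3 CPM in the tibia and 369.8 ± 44.0 CPM in the femur (n = 6 libraries each; log2 fold change -0.06, adjusted p = 0.351). By animal, Itgb1 was at 0.04 in mouse 19 (edgeR adjusted p = 0.714) and was called lower in mouse 7 at -0.16 (adjusted p = 0.0087). The change of Itgb1 differed between the mice (adjusted p = 0.0385).

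The sialomucin genes Selplg and Spn were lower in the tibia of mouse 19. Selplg had 473.8, 468.4 and 468.2 CPM in the tibia of mouse 19, against 514.1, 542.2 and 508.7 CPM in its femur. In mouse 7 it had 450.6, 479.7 and 485.3 CPM in the tibia, against 488.8, 459.1 and 512.9 CPM in the femur. The bones of mouse 7 overlapped and those of mouse 19 did not. The log2 fold change of Selplg was -0.15 ± 0.04 in mouse 19 (edgeR adjusted p = 0.0251), -0.04 ± 0.04 in mouse 7 (adjusted p = 0.559) and -0.10 ± 0.03 over both (adjusted p = 0.0749). The difference of -0.11 ± 0.06 between the mice did not pass (adjusted p = 0.403). The call in mouse 19 was lost without its tibia library 1 (0.0697) or 2 (0.0609) or its femur library 2 (0.166). Over both mice Selplg passed with no low count filter (0.0488) or without femur library 2 of mouse 7 (0.0227).

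Spn had 282.0, 268.4 and 276.6 CPM in the tibia of mouse 19, against 314.0, 323.8 and 314.1 CPM in its femur. Mouse 7 had 284.9, 274.1 and 279.6 CPM in the tibia, against 269.8, 278.9 and 276.0 CPM in the femur. The tibia libraries of both mice and the femur libraries of mouse 7 overlapped, and the femur libraries of mouse 19 stood above them all. The log2 fold change was -0.20 ± 0.04 in mouse 19 (edgeR adjusted p = 7.9e-04), 0.02 ± 0.04 in mouse 7 (adjusted p = 0.771) and -0.09 ± 0.04 over both (adjusted p = 0.155). The change differed between the mice by -0.23 ± 0.05 (adjusted p = 0.009).

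**Figure D3:**
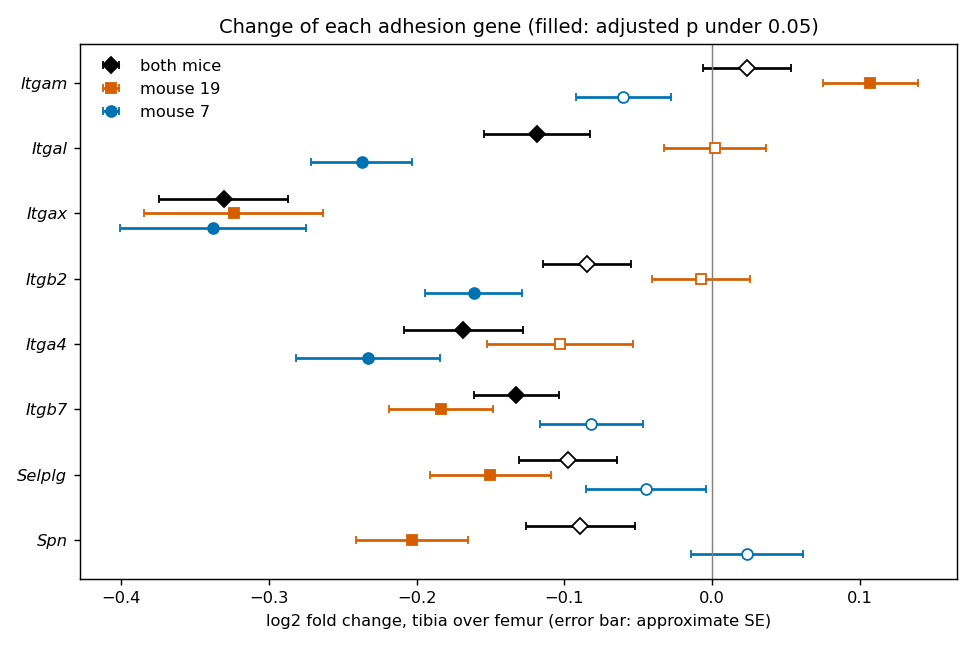
Log2 fold change of each gene, tibia over femur, with its approximate SE, over both mice (black diamonds), in mouse 19 (orange squares) and in mouse 7 (blue circles), filled where the adjusted p is under 0.05. Itgax is called in all 3 fits, at -0.33, -0.32 and -0.34.

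Within the animals, Itgax was the only member called in both. The share of all genes called in both was not counted, so this cannot be set against it. In mouse 19 the calls were lower for Itgax, Itgb7, Selplg and Spn and higher for Itgam, where 2.21% of all genes were called lower and 2.96% higher. In mouse 7 the calls were lower for Itgal, Itgax, Itgb2 and Itga4 and 0 were higher, where 5.36% of all genes were called lower and 4.37% higher. The change itself differed between the mice for 3 of 8 members, Itgam, Itgal and Spn, against 4.74% of all genes. In 2 of 8 members, Itgax and Itgb7, every tibia library was below every femur library of its mouse in both animals, against 2.76% of all tested genes. Separation within a single animal was more common among all genes. Every tibia library was below every femur library in mouse 19 for 4 of 8 members and 1211 of 11806 genes. In mouse 7 this held for 6 of 8 members and 1702 genes. Every tibia library was above every femur library for 1 member and 1270 genes in mouse 19, and for 0 members and 1442 genes in mouse 7.

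The untreated femurs of the animals also lay apart. In the femur, Itga4 averaged 640.5 ± 10.7 CPM in mouse 19 and 913.6 ± 62.3 CPM in mouse 7 (n = 3 libraries each), a log2 difference of -0.51 ± 0.05 (edgeR adjusted p = 1.8e-09). Itgal averaged 520.0 ± 3.6 CPM in mouse 19 and 691.8 ± 18.9 CPM in mouse 7 (-0.41 ± 0.03, adjusted p = 1.2e-10). Itgax was higher in mouse 19, with 74.4 ± 1.7 CPM in mouse 19 and 54.1 ± 1.5 CPM in mouse 7 (0.46 ± 0.06, adjusted p = 6.5e-07), as was Spn (0.21 ± 0.04, adjusted p = 9.4e-05). Itgb2 (-0.17 ± 0.03, adjusted p = 1.6e-04) and Itgam (-0.10 ± 0.03, adjusted p = 0.0156) were lower in mouse 19, while Selplg (0.10, adjusted p = 0.0664) and Itgb7 (-0.02, adjusted p = 0.779) did not pass. These 6 of 8 calls stand against 28.4% of all genes called in either direction between the femurs. This comparison covers 2 animals, so it describes them and not mice in general. It shares its femur libraries with the comparisons within each mouse.

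**Figure D4:**
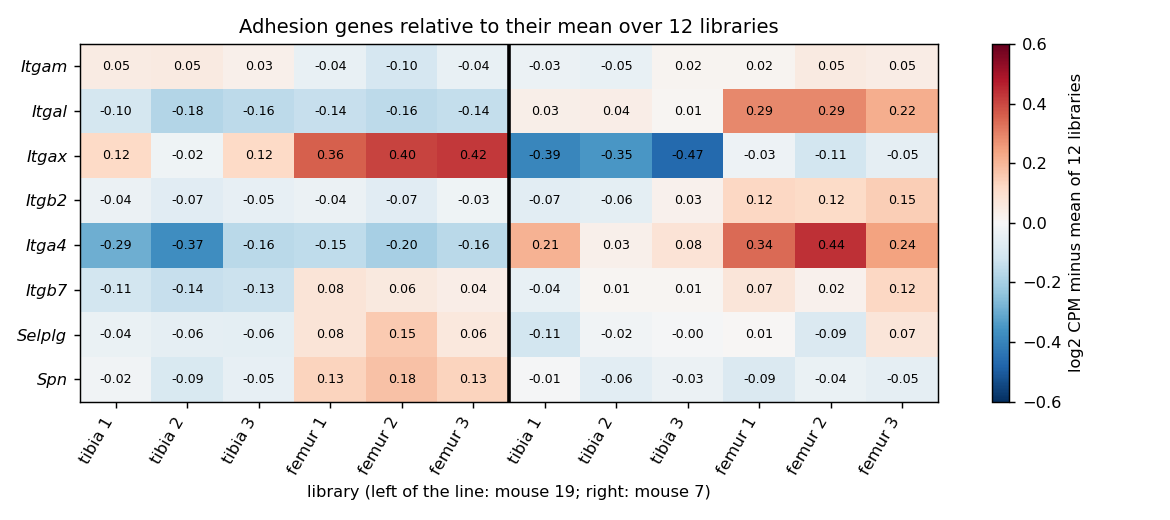
Log2 CPM of each gene minus its mean over the 12 libraries, with the libraries of mouse 19 left of the line and those of mouse 7 right of it, tibia before femur. Itga4 and Itgal are higher in mouse 7, Itgax and femoral Spn are higher in mouse 19, and Itgax is lower in the tibia than in the femur of each mouse.

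For each member the tested genes with the nearest profile were found by the root mean square difference of centred log2 CPM over the 12 libraries, among 8499 genes of at least 10 CPM. The nearest to Itgax were Ptger4, a prostaglandin E2 receptor gene (0.11), and Ccr3, an eotaxin receptor gene (0.112). Itgal lay nearest to Irf1, an interferon-regulated transcription factor gene (0.0289), and to the RNA helicase gene Ddx17 (0.0404). The nearest to Itga4 were Lnpep (0.0554) and Fam46a (0.0565), and to Itgb2 Nadk (0.0235) and Foxp1 (0.0268). Itgam lay nearest to the actin regulators Cyfip1 (0.0326) and Actr3 (0.0328), which like Itgam were not called over both mice (adjusted p = 0.91 and 0.87). Myo1g, a leukocyte myosin gene, was near Itgb7 (0.0359), whose other nearest row has a symbol that a spreadsheet turned into a date. Selplg was nearest to Eef2 (0.0394) and Nub1 (0.0399), and Spn to Ckap5 (0.0411) and Oxr1 (0.0413). These distances describe 12 libraries of 2 animals and share their scaling. They cannot be compared between members, because the members' own spread over the libraries differed. The SD of log2 CPM was 0.303 for Itgax and 0.0517 for Itgam.

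Other genes of leukocyte adhesion were counted in the same fit, tibia over femur, where 3.69% of all tested genes were called lower and 3.51% higher. Of 21 other integrin genes 15 were tested, and 2 rose and 1 fell (median log2 fold change -0.11, against -0.0021 for all genes). Itgb5, a partner of the alpha-v chain that binds vitronectin, averaged 115.3 ± 3.4 CPM in the tibia and 79.4 ± 17.4 CPM in the femur (log2 0.56 ± 0.07, edgeR adjusted p = 1.25e-05, 0.0387 on sums). It rose in both mice and by more in mouse 19 (0.85) than in mouse 7 (0.29; adjusted p of the difference 8.7e-06). Itga6, the alpha chain of laminin receptors, rose by 0.44 ± 0.07 (26.5 CPM in the tibia and 19.6 CPM in the femur; adjusted p = 3.4e-04, 0.0732 on sums). Itgb3, another partner of the alpha-v chain and an osteoclast integrin chain, fell by 0.46 (SE 0.05, adjusted p = 3.5e-06, 36.2 CPM in the tibia and 49.5 CPM in the femur, 0.0141 on sums). Itgad, the fourth alpha chain of Itgb2, was at -0.36 ± 0.11 and did not pass (adjusted p = 0.0554).

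Of 23 genes that control integrin activation, a list that holds activators and also restrainers such as Sharpin and Itgb1bp1, 20 were tested, and 2 rose and 1 fell (median log2 fold change -0.02). Parvg, a focal adhesion adaptor of blood cells, rose by 0.22 ± 0.04 (edgeR adjusted p = 0.002), and Fermt3, which encodes kindlin-3, the activator of blood cell integrins, rose by 0.11 ± 0.03 (adjusted p = 0.0204). Tln1, which encodes talin, the link between integrin tails and actin, fell by 0.09 (SE 0.03, adjusted p = 0.0385). None of these 3 passed on sums per animal (adjusted p = 0.219, 0.522 and 0.641). Among 15 genes that carry signals from engaged integrins 4 fell and 0 rose over both mice (median -0.10). By animal, 1 was called lower in mouse 19 and 9 in mouse 7, against 2.21% and 5.36% of all genes. The change differed between the mice for 4 of the 15, against 4.74% of all genes. The ubiquitin ligase gene Cbl fell by 0.20 (SE 0.04, adjusted p = 0.0038), the kinase gene Syk by 0.14 (SE 0.03, adjusted p = 0.0132), and the phospholipase gene Plcg2 by 0.10 (SE 0.03, adjusted p = 0.0294). The change of Syk (-0.04 in mouse 19 and -0.24 in mouse 7) differed between the mice (adjusted p = 0.01). None of these 3 passed on sums (0.154 to 0.584).

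Selectins, sialomucins and their cytoplasmic partners had 1 lower and 0 higher of 12 tested genes (median log2 fold change -0.06). Moesin, encoded by Msn, which tethers PSGL-1 and CD43 to actin, had 1577 CPM in the tibia and 1590 CPM in the femur (-0.01 ± 0.02, edgeR adjusted p = 0.847). All 12 listed genes of selectin ligand synthesis, which are glycosyltransferases, sulfotransferases and the chaperone gene C1galt1c1, were tested, and 0 were called in either direction over both mice (median -0.02), among them Fut7 (-0.14 ± 0.09, adjusted p = 0.424) and Gcnt1 (0.08 ± 0.04, adjusted p = 0.267).

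Of 17 ligand genes 10 were tested, and 3 rose and 2 fell. Spp1, whose product osteopontin binds alpha4 and alpha-v integrins, averaged 82.1 ± 15 CPM in the tibia and 12.5 ± 1.7 CPM in the femur (log2 2.71 ± 0.07, edgeR adjusted p = 2.05e-19). F11r encodes the junctional molecule JAM-A, a ligand of LFA-1. It averaged 39.1 ± 8.3 CPM in the tibia and 21.0 ± 3.4 CPM in the femur (0.88 ± 0.07, edgeR adjusted p = 5.1e-09). In 6 of 6 tibia libraries F11r was above the femur mean of the same mouse. Cdh1, which encodes E-cadherin, a ligand of the integrin CD103, also rose, at a level under 10 CPM. C3, the source of the Mac-1 ligand iC3b, fell by 0.19 (SE 0.03, adjusted p = 8.8e-05), and Fn1, the fibronectin gene, fell by 0.14 (SE 0.03, adjusted p = 0.0046). Cdh1, C3 and Fn1 were not called on sums (0.167, 0.209 and 0.429). Icam1 was at 0.10 ± 0.07 (adjusted p = 0.410) and Vcam1 at 0.12 ± 0.11 (adjusted p = 0.569), the change of Icam1 being 0.32 in mouse 19 (adjusted p = 0.0077) and -0.10 in mouse 7 (0.433; adjusted p of the difference 0.0125).

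**Figure D5:**
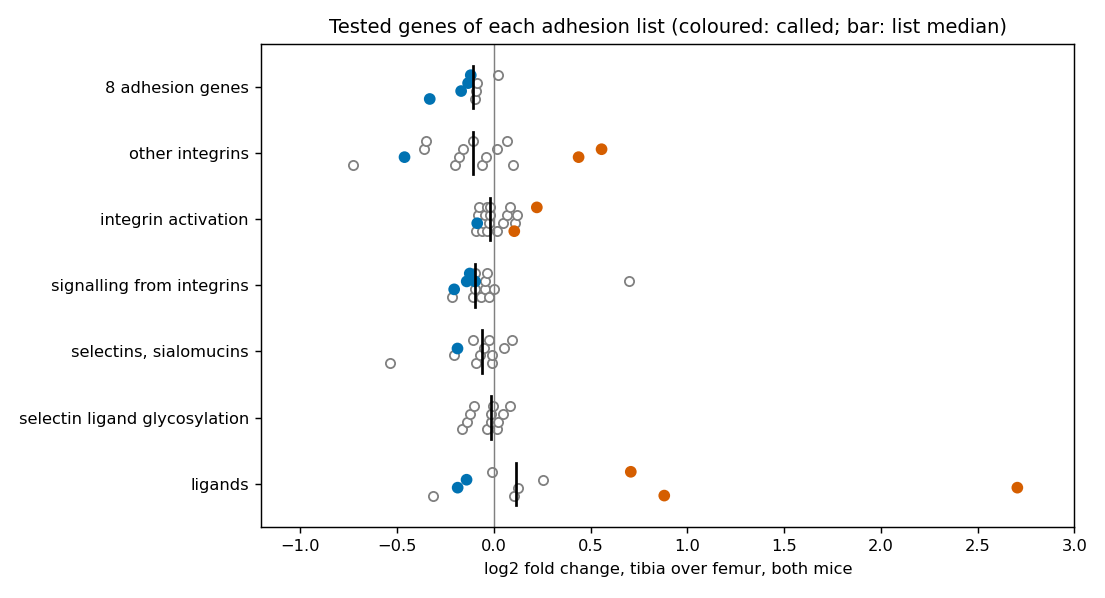
Log2 fold change, tibia over femur over both mice, of each tested gene in 7 adhesion lists, coloured where the adjusted p is under 0.05 (orange higher, blue lower), with the list median as a black bar. Most list medians lie at or just below 0, and Spp1 stands far to the right among the ligands at 2.71.

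Markers of other cells moved beside these genes, and their part in the results was not tested. In the same fit over both mice 3.69% of all tested genes were called lower and 3.51% higher. Of 6 classical monocyte markers 3 were called lower, among them Chi3l3 and F13a1, and 0 higher. The others were not called, namely Ccr2 (log2 fold change 0.05, edgeR adjusted p = 0.446), Ly6c2 (-0.04, adjusted p = 0.638) and Ly6c1 (0.0064, adjusted p = 0.987). The summed level of the 6 was 12400 to 12900 CPM in tibia and 13410 to 14170 CPM in femur libraries. Chi3l3 was the largest part of this sum, with a mean of 5611 CPM in the tibia and 6432 CPM in the femur. Markers of granulocyte precursors had 5 of 6 called higher (Mpo, Elane, Prtn3, Ctsg and Ms4a3). Their sum was 1463 to 1807 CPM in the tibia and 1192 to 1488 CPM in the femur of mouse 19, and 1028 to 1273 CPM in the tibia and 716 to 748 CPM in the femur of mouse 7, where the bones did not overlap. The dendritic cell list had 2 of 8 called lower, Cd209a and Flt3. Its sum was 53.2 to 64.2 CPM in the tibia and 51.3 to 61.0 CPM in the femur of mouse 19, and 56.7 to 58.8 CPM in the tibia and 81.2 to 87.0 CPM in the femur of mouse 7. Ciita (25.7 CPM in the tibia and 26.5 CPM in the femur), Flt3 (18.3 CPM in the tibia and 22.8 CPM in the femur) and Cd209a (7.51 CPM in the tibia and 13.1 CPM in the femur) had the highest means of the 8. Clec9a averaged 2.71 CPM in the tibia and 2.69 CPM in the femur, Siglech 1.73 CPM in the tibia and 2.29 CPM in the femur, and the other 3, Zbtb46, Xcr1 and Ccr7, were under 1 CPM. Eosinophil and mast cell markers, 0 of 6 called, summed to 223 to 290 CPM in the tibia and 296 to 364 CPM in the femur of mouse 19, and to 110 to 163 CPM in the tibia and 96.6 to 119 CPM in the femur of mouse 7.

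Non-classical monocyte markers had 1 of 7 called lower (Cd300e). Their sum was 757 to 830 CPM in the tibia and 686 to 738 CPM in the femur of mouse 19, and 791 to 835 CPM in the tibia and 954 to 1023 CPM in the femur of mouse 7. Of the 9 neutrophil markers 3 were called higher and 2 lower, and their sum was 17790 to 31440 CPM in tibia and 17390 to 29560 CPM in femur libraries. It was higher in mouse 19, at 29050 to 31440 CPM in the tibia and 25830 to 29560 CPM in the femur, than in mouse 7, at 17790 to 19240 CPM in the tibia and 17390 to 19100 CPM in the femur. B cell markers summed to 17.5 to 32.4 CPM in tibia and 16.4 to 42.1 CPM in femur libraries, and T and NK cell markers to 2.77 to 5.12 CPM in tibia and 3.77 to 7.71 CPM in femur libraries. Macrophage markers had 2 called higher, among them Mertk, and 1 lower, Lyz2, among 8. Their sum was 14170 to 15070 CPM in the tibia and 14720 to 15170 CPM in the femur of mouse 19, and 15390 to 16080 CPM in the tibia and 17280 to 17860 CPM in the femur of mouse 7, where the bones did not overlap.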

How the data were processed

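The authors deposited 1 table of raw read counts per gene symbol, in whole numbers, with 1 column per library. The build was mm10, per the submitters' processing notes, which name as tools bcl2fastq, HISAT2, featureCounts, Subread and DESeq2. Neither their versions nor the use of strand or the gene annotation is stated there, so reads of overlapping and antisense genes cannot be told apart. RNA came from a column kit with DNase treatment and a Vazyme mRNA-seq kit, per the labels. All 12 columns were matched to samples by title. Symbols turned into dates filled 27 rows, at most 0.194% of a library. The annotated lengths and loci are those of GENCODE M21 and RefSeq GRCm38.p6, which may differ from the gene models counted. Among counts of 1 to 10, 69.8% were even, so most fragments appear as 2 counts; intervals for single libraries were computed on counts divided by 2.

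The tests were run with edgeR 4.0.16 under R 4.3.3, with filterByExpr over the 4 groups of mouse and bone (minimum count 10, 11806 genes), TMM scaling, and glmQLFit with glmQLFTest. The main model had the mouse as a term. Contrasts within and between mice used 1 mean per mouse and bone. Tests were two-sided. Log2 fold changes carry an approximate SE, the absolute change over the square root of F, and 95% intervals are 1.96 SE either way. CPM are counts over TMM-scaled library sizes. Alternatives were counts summed per animal, other scalings and filters, halved counts, limma 3.58.1 voom, DESeq2 1.42.0, no mouse term, a replicate block, and leaving out each library. On halved counts, chi-square per gene between libraries of 1 bone was 1.39 to 3.25, so all were kept as separate libraries. The procedure was tested on simulated data.

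The 8 members and the gene lists were chosen with earlier results of these data known, so no p was adjusted over a list. The 8 members are named whatever their values. From each pathway list the text names up to 4 called genes of 10 CPM or more, by size of change; genes named beyond these were chosen after their values were seen. For each member the 2 nearest genes by profile are named. Some called genes of the lists are counted and are not reported here by name.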

Additional observations from a re-analysis of the deposited data

Results flagged for a closer look

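The change, tibia over femur, differed between the mice for 3 of the 8 members by the test of the difference itself, mouse 19 minus mouse 7. It was 0.17 on the log2 scale for Itgam, 0.24 for Itgal and -0.23 for Spn (edgeR adjusted p = 0.0253, 0.0022 and 0.009). The log2 fold changes behind them were 0.11 in mouse 19 and -0.06 in mouse 7 for Itgam, 0.0018 in mouse 19 and -0.24 in mouse 7 for Itgal, and -0.20 in mouse 19 and 0.02 in mouse 7 for Spn.

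Itgb2 had 1 tibia library apart from the others. Tibia library 3 of mouse 7 held 1304 CPM, while the other 5 tibia libraries held 1221 to 1251 CPM, and the gap was 0.647 of the whole range. It was 1 of 16 sets of 6 libraries looked at (8 genes in 2 bones), and chance alone marks about 1 set in 20.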

How the results depend on the processing

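Of 72 values of the 8 genes, tibia over femur, under 9 alternatives, 63 kept their direction and their side of the threshold, and none changed direction. The calls of Itgal (-0.12), Itga4 (-0.17) and Itgb7 (-0.13) were lost on sums per animal, which left 1 member, and 48 genes higher and 17 lower, with 4 samples in place of 12. Without a mouse term the calls of Itgal (-0.13), Itgax (-0.33), Itga4 (-0.18) and Itgb7 (-0.13) were lost, leaving 0 members and 50 genes higher and 24 lower. Same-numbered libraries of a mouse did not deviate together (r from -0.168 to 0.0897 over 6 pairs, and 2 of 6 tibia libraries correlated best with their own number), so the numbers were not taken as pairs. With a replicate block 239 genes were higher and 256 lower, and Itgal lost its call (-0.12, adjusted p = 0.117); the block changed no other member's call. Selplg passed with no low count filter (-0.10, adjusted p = 0.0488). Leaving out 1 library gave -0.14 to -0.10 for Itgal, -0.12 to -0.079 for Selplg and 279 to 490 genes called lower, the low counts of 279 and 283 coming on removal of the third tibia library of mouse 7 and the second of mouse 19. Members called lower stayed at 3 or 4. Small values near 0 changed sign: Itgal in mouse 19 was -0.0016 with median-of-ratios factors and -0.019 to 0.016 without 1 library, Itgb2 in mouse 19 was -0.020 to 0.0015, and the difference between mice for Itgax was -0.018 to 0.049. Causes of single lost calls were not tested. With 2 animals, changes near 10% were called over libraries and not over animals.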

Other observations

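Ratios of raw counts within a library do not depend on library size. The Itgax to Itgam count ratio was 0.0366 ± 0.0023 in the tibia and 0.0494 ± 0.0018 in the femur of mouse 19, and 0.0276 ± 0.0018 in the tibia and 0.0334 ± 0.0014 in the femur of mouse 7 (mean ± SD, n = 3 libraries each), with no overlap between the bones of either animal. The Itgal to Itgam ratio was 0.321 ± 0.008 in the tibia and 0.345 ± 0.006 in the femur of mouse 19, and 0.379 ± 0.013 in the tibia and 0.428 ± 0.014 in the femur of mouse 7, again with no overlap within an animal. In mouse 19 Itgal itself was not called (log2 fold change 0.0018, edgeR adjusted p = 0.987). Itgam, the denominator, was called higher there (0.11, adjusted p = 0.0454). The Itgb7 to Itga4 ratio was 0.888 ± 0.062 in the tibia and 0.936 ± 0.018 in the femur of mouse 19, and 0.739 ± 0.061 in the tibia and 0.667 ± 0.069 in the femur of mouse 7, and overlapped in both. These ratios were chosen after the values were seen and were not tested.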
